A study of Mus musculus with 10 samples.

Results

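The axon guidance families were examined as 131 peaks of open chromatin, which is 0.361% of the 36251 peaks measured by ATAC-seq (assay for transposase-accessible chromatin with sequencing) in innate lymphoid cells of the mouse small intestinal lamina propria. A peak was a member when its nearest protein-coding gene, no more than 50 kb away, carried a symbol of the Sema, Plxn, Epha, Ephb, Efna, Efnb, Slit, Robo, Unc5 or Nrp families. Slitrk genes were not counted. The 131 peaks belonged to 42 of the 64 genes of these families, and 22 genes had no peak. Membership rested on symbol and position, but the families were picked with earlier results of these data known, and Plxna2 was chosen by the differences between groups measured in these same libraries. The 8 Plxna2 peaks are therefore described without a test, and every test and every count of called peaks below covers the other 123 peaks in 41 genes.

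All mice were C57BL/6, carried Id2creERT2+ and the fluorescent reporter allele tdRFP+, and ate tamoxifen in the diet to activate the Cre recombinase some weeks before the cells were sorted. Control mice (3 libraries) carried no further allele. The knockout groups, called here by their labels, shared 1 gene flanked by LoxP sites, and RORgt-KO mice (2 libraries) carried that one alone. RORgt-Tbet-KO mice (2 libraries) were also Tbx21f/f, targeting T-bet, a factor of type 1 lymphocytes. RORgt-RORa-KO mice (3 libraries) were also Roraf/f, targeting the nuclear receptor RORα. No group lacked T-bet or RORα alone, so each second deletion was measured only on top of the first. Each library came from 1 mouse or from 2 or 3 pooled mice, Cre was driven from Id2, a gene that all innate lymphoid cells express, and the sort markers are not named in the labels, so the share of each subset in a library is unknown. In such bulk libraries, fewer cells of a subset and a lower signal per cell cannot be told apart.

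Semaphorins are secreted or membrane-bound ligands that act through plexins, with neuropilins as co-receptors for the class 3 members. Ephrins are cell-bound ligands of the Eph receptor tyrosine kinases and also signal backwards into the cell that carries them. Slits are secreted ligands of the Robo receptors, and Unc5 proteins are repulsive netrin receptors. These cues are best known for steering growing axons, and several also act in immune cells: Sema4d (CD100), Sema4a and Sema7a are found on lymphocytes, plexins take part in their contacts and migration, and neuropilin 1 is a surface marker of some regulatory T cells and innate lymphoid cells.

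For 38 of the 42 member genes a promoter was listed in RefSeq (GRCm38.p6); none was listed for Plxna1, Plxna4, Sema3b and Sema6a. A peak lay over the 300 bases around a listed start in 23 genes, with 24 such peaks. The 5 promoters below were chosen because they cover the range of outcomes at a start: Unc5c had the start peak with the smallest p-values, Epha7 and Sema3d also fell, Plxna2 is the named gene, and the start peak of Sema6c was higher in 1 knockout group. Each runs 5′ to 3′ on the + strand, up to 250 bases before the listed start, and stops where the gene body of the RefSeq gene table begins. Capitals mark matches to 5 short motifs that were chosen with results known and were searched on both strands: the ROR half-site AGGTCA, the T-box core AGGTGT, the RUNX core TGTGGT, the GC box GGGCGG and the ETS core CCGGAA. On the opposite strand the T-box core reads ACACCT and the GC box CCGCCC.

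Unc5c, chr3:141465314-141465563: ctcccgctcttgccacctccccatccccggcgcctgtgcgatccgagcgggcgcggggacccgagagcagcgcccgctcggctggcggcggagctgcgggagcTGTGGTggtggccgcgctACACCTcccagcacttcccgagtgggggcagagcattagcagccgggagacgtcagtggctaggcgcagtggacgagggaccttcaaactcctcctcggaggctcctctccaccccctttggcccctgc
Plxna2, chr1:194619579-194619790: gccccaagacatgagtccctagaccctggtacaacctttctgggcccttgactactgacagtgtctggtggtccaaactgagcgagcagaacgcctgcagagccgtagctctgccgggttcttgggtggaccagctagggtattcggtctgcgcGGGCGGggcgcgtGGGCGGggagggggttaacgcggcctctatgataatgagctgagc
Epha7, chr4:28812881-28813065: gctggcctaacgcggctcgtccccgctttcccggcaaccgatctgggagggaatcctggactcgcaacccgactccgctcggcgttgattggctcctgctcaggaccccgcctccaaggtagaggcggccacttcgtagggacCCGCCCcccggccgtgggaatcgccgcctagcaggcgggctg
Sema3d, chr5:12382916-12383160: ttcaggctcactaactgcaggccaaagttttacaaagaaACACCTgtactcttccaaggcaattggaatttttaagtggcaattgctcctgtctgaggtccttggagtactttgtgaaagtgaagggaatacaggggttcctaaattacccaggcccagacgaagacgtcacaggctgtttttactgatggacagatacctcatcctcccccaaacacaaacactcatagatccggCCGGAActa
Sema6c, chr3:95160170-95160419: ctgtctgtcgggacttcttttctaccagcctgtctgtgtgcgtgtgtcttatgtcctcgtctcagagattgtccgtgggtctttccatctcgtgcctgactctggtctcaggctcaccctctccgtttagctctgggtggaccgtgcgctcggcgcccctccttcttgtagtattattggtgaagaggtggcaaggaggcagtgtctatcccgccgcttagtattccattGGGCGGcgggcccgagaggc

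The windows of Unc5c, Plxna2, Epha7 and Sema6c lie inside their start peaks, and that of Sema3d overlaps its peak at the 3′ end. Unc5c held a RUNX core at base 104 and a reverse T-box core at base 122. Plxna2 held GC boxes at bases 155 and 168, and Epha7 a reverse GC box at base 144. A reverse T-box core at base 40 and an ETS core at base 237 were found for Sema3d, and a GC box at base 231 for Sema6c. Over the 33 windows of 250 bases listed for the 23 genes with a peak at a start, the GC box was found in 22, the ROR half-site in 5, and the T-box, RUNX and ETS cores in 3 each. Of all 32851 listed windows of that length, 32.7% held the GC box, 14.0% the ROR half-site, 11.8% the T-box core, 14.0% the RUNX core and 12.0% the ETS core. The GC content of the full window of 250 bases was 71.2% for Unc5c, 69.2% for Epha7, 62.8% for Plxna2, 57.6% for Sema6c and 46.8% for Sema3d, against a median of 52.4% over all windows. A match is a stretch of letters and was not tested as a binding site.

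The libraries held 2271585 to 5047436 reads in peaks, and libraries of 1 group correlated at r = 0.908 to 0.967 over all peaks. Control replicate 1 had no read in 190 peaks, against 9 to 63 peaks in the other 9 libraries. None of the 3 Tbx21 peaks was below all other libraries in both RORgt-Tbet-KO libraries, and none of the 14 Rora peaks was in the 3 RORgt-RORa-KO libraries. Which exons are floxed is not given in the labels, so peaks outside them check nothing. All 8 innate lymphoid marker genes looked at had peaks, with a summed signal of 8312 to 9292 scaled reads in Control, 8294 to 8850 for RORgt-KO, 11029 to 11228 for RORgt-Tbet-KO and 8342 to 10797 for RORgt-RORa-KO. Of 10 neuron and glia markers, 2 had a peak, and their summed signal was 433 to 439 scaled reads in Control, 401 to 405 for RORgt-KO, 494 to 577 for RORgt-Tbet-KO and 406 to 437 for RORgt-RORa-KO. Over the 4 of 7 epithelial markers with a peak, signal was higher in the knockouts (678 to 811) than in Control (522 to 581), and Krt18, Krt20 and Vil1 had no peak. Over the 3 of 6 B cell markers with a peak, signal was lower in the knockouts (577 to 846) than in Control (1059 to 1148), and Cd79a and Ms4a1 were among those without one. Over the 4 of 6 T cell markers with a peak, signal was 323 to 366 in Control, 308 to 341 for RORgt-KO, 370 to 453 for RORgt-Tbet-KO and 449 to 483 for RORgt-RORa-KO, and Cd3g and Cd6 had none. Over 3 of 7 endothelial markers it was 390 to 448 in Control, 446 to 454 for RORgt-KO, 586 to 602 for RORgt-Tbet-KO and 471 to 620 for RORgt-RORa-KO, with no peak at Cdh5, Emcn, Kdr and Tie1. Over 3 of 6 stromal markers it was 631 to 712 in Control, 552 to 597 for RORgt-KO, 743 to 789 for RORgt-Tbet-KO and 529 to 608 for RORgt-RORa-KO, with none at Col1a1, Col3a1 and Dcn. Over 3 of 6 myeloid markers it was 176 to 229 in Control and 238 to 297 in the knockouts, with none at Cd68, Csf1r and Lyz2. The part of these cells in the results was not tested.

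Values below are log2 scaled reads as deposited, in which 1 read counts for 0.838 to 1.76 units depending on the library, and differences are on that log2 scale, as fitted by limma with 1 estimate of spread for all 10 libraries. A peak is called changed when its adjusted p is under 0.05, with Benjamini-Hochberg adjustment over all 36251 peaks. Each call at a member peak was repeated with each library left out in turn and under other settings, and a call is said to be lost when its adjusted p then rose above that threshold. With 2 or 3 libraries a group, this happened often. Of the 104 calls over the 6 comparisons, 27 were lost when the spread was fitted without a trend with the mean level, written below as lost without the trend. A fixed rule named the peaks with the largest changes in each family and comparison; further peaks are shown that were chosen after their values were seen.

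With all 10 libraries, most member peaks that changed against Control fell. In RORgt-KO cells, 15 of 123 peaks fell (12.2%, against 7.12% of all peaks) and 4 rose (3.25%, against 5.19%). In RORgt-Tbet-KO cells, 26 fell (21.1%, against 11.3% of all peaks) and 10 rose (8.13%, against 11.3%). In RORgt-RORa-KO cells, 29 fell (23.6%, against 16.1%) and 10 rose (8.13%, against 15.1%). The median log2 difference over the 123 peaks was -0.087, -0.15 and -0.088 in the 3 comparisons, against 0.021, 0.0055 and 0.020 over all peaks. An F test over the 4 groups called 46 of the 123 peaks (37.4%, against 30.7% of all peaks). The 3 comparisons share the Control libraries, so their counts are not independent of each other.

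The RORgt-KO count depended on single libraries: 19 peaks were called with all 10, against 7 without Control replicate 1, 8 without Control replicate 2 (4 higher and 4 lower, so no longer mostly lower), 2 without RORgt-KO replicate 1 and 5 without RORgt-KO replicate 2. The 36 calls in RORgt-Tbet-KO became 14 without its replicate 1 and 11 without its replicate 2, while the 39 in RORgt-RORa-KO ranged from 31 to 41. Leaving out each library in turn, 1 of the 19 calls, 5 of the 36 and 23 of the 39 were made every time. Under every other setting tried, 9, 27 and 33 of them were made, and without a mean-variance trend 12 calls were made in RORgt-KO.

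**Figure D1:**
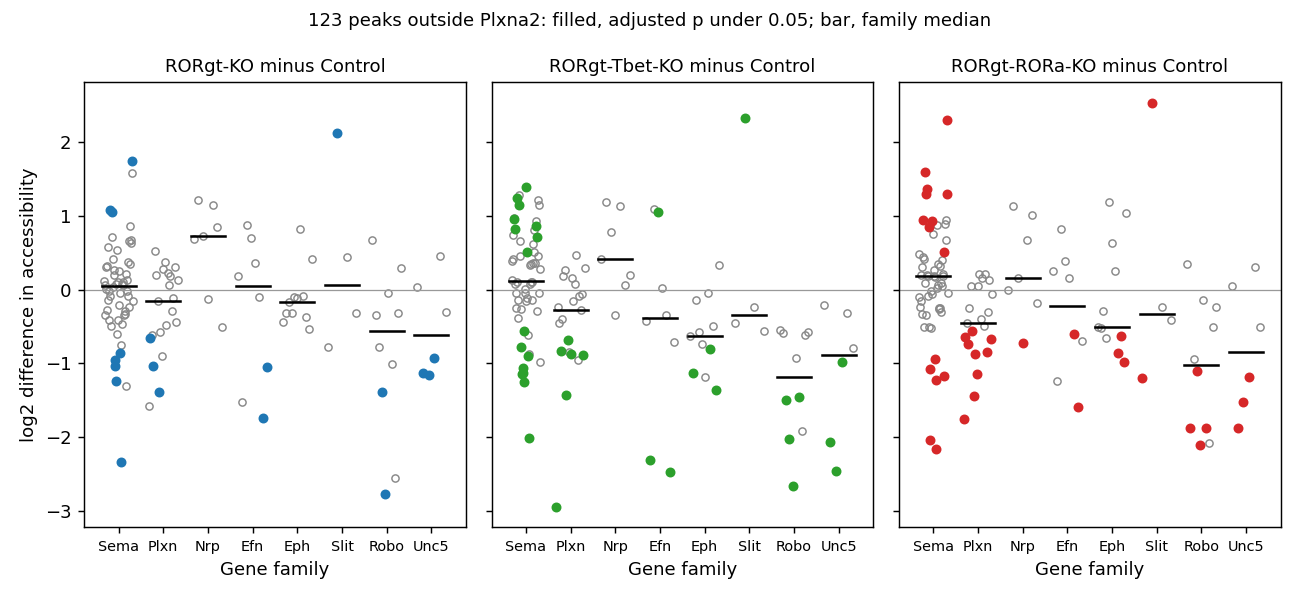
Log2 difference from Control of the 123 peaks outside Plxna2, in 1 panel for each knockout group and by gene family on the x axis; filled points have an adjusted p under 0.05, open points do not, and the bar is the family median. The Robo and Unc5 medians lie below 0 in every panel, and the filled semaphorin points lie on both sides of 0.

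Summed over the 123 peaks outside Plxna2, Control libraries held 9788 to 10226 scaled reads, RORgt-KO libraries 8903 and 9145, RORgt-Tbet-KO libraries 8499 and 8639, and RORgt-RORa-KO libraries 8407 to 8440. No knockout library reached the lowest Control library. The same sum over all peaks is not given for comparison, and strong peaks weigh most in such a sum. Of all 131 members, 55.7% lay inside a gene body, 22.9% within 1 kb of a gene end and 21.4% farther outside, against 39.8%, 29.2% and 20.9% of all peaks, with 10.1% of all peaks near no gene. They were shorter than usual, with a median length of 392 bp against 480 bp, and had a median level of 5.50 against 5.88. The most distant member lay 49928 bp from Efnb1, 4 members lay at 40 to 50 kb, and 6 peaks nearest to Nrp2, Sema6d or Plxna1 fell just outside the limit at 50 to 60 kb. Of the 28 tested peaks at gene ends, 5, 8 and 11 fell in the 3 comparisons (17.9%, 28.6% and 39.3%, against 1.49%, 6.06% and 9.09% of all gene-end peaks) and 0, 1 and 0 rose (against 1.54%, 6.08% and 5.72%). The 5 falls in RORgt-KO were at Unc5c, Efnb1, Sema3d and Sema6a, with more than 1 at Unc5c. Each of these 5 calls was lost without at least 1 library. Of the 67 inside genes, 8, 15 and 14 fell (11.9%, 22.4% and 20.9%, against 8.31%, 11.6% and 17.4% of all peaks inside genes) and 3, 7 and 6 rose (4.48%, 10.4% and 8.96%, against 7.19%, 14.8% and 20.3%). Of the 28 farther outside, 2, 3 and 4 fell (7.14%, 10.7% and 14.3%), near the shares of all such peaks (8.82%, 12.7% and 17.7%). There 1, 2 and 4 rose (3.57%, 7.14% and 14.3%, against 6.46%, 13.1% and 18.8%).

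Plxna2 encodes plexin A2, a receptor for class 6 semaphorins and, together with neuropilins, for class 3 semaphorins. Its gene body (chr1:194619791-194816869, + strand) held 7 peaks within it or across its start, and 1 peak lay just beyond its 3′ end. All 8 peaks had a lower mean than Control in every knockout group. Every library was below every Control library at 7 of 8 peaks in RORgt-KO, 7 of 8 in RORgt-Tbet-KO and 8 of 8 in RORgt-RORa-KO, whereas 20.6%, 26.3% and 20.4% of all peaks showed that order. Since the gene was named for its pattern, nothing is read from this.

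The start peak of Plxna2 (194618897-194620670) was the strongest of the 8, at 8.72, 8.69 and 8.74 in Control, 8.47 and 8.58 for RORgt-KO, 8.36 and 8.45 for RORgt-Tbet-KO and 8.02, 7.43 and 7.85 for RORgt-RORa-KO. The RORgt-RORa-KO libraries were thus the lowest, at 1.92-fold below Control, with the other groups 1.14-fold and 1.24-fold below it. The largest change was at a peak inside the gene, 154.5 kb downstream of the start (194774035-194774575). It stood at 7.15, 7.51 and 6.23 in Control, 4.37 and 3.24 for RORgt-KO, 2.50 and 3.55 for RORgt-Tbet-KO and 4.07, 4.28 and 2.65 for RORgt-RORa-KO. Mean differences were -3.16, -3.94 and -3.30, or 8.95-fold, 15.4-fold and 9.85-fold lower. Reads behind these values were 110, 141 and 47 in Control and 6 to 17 in the 7 knockout libraries.

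A peak 39.8 kb into Plxna2 (194659369-194659855) stood apart between the knockouts: 6.07, 6.56 and 6.43 in Control, 4.99 and 5.11 for RORgt-KO, 4.82 and 5.03 for RORgt-Tbet-KO and 4.07, 3.82 and 3.30 for RORgt-RORa-KO. All RORgt-RORa-KO libraries lay below all libraries of the other knockouts there, at 6.17-fold under Control against 2.48-fold and 2.70-fold. Its neighbour at 40.9 kb (194660457-194660865) did not move that way, with 5.73, 5.50 and 5.38 in Control, 4.45 and 3.97 for RORgt-KO, 5.44 and 5.07 for RORgt-Tbet-KO and 4.19, 4.63 and 3.43 for RORgt-RORa-KO. There 1 RORgt-Tbet-KO library reached the Control range. The remaining 4 peaks, at 52.2, 118, 126.5 and 197.3 kb, had mean differences of -0.54 to -1.36 in RORgt-KO, -0.39 to -1.65 in RORgt-Tbet-KO and -1.26 to -2.29 in RORgt-RORa-KO. At the last of these, beyond the 3′ end, RORgt-KO replicate 2 (4.90) lay inside the Control range (4.58 to 5.90).

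**Figure D2:**
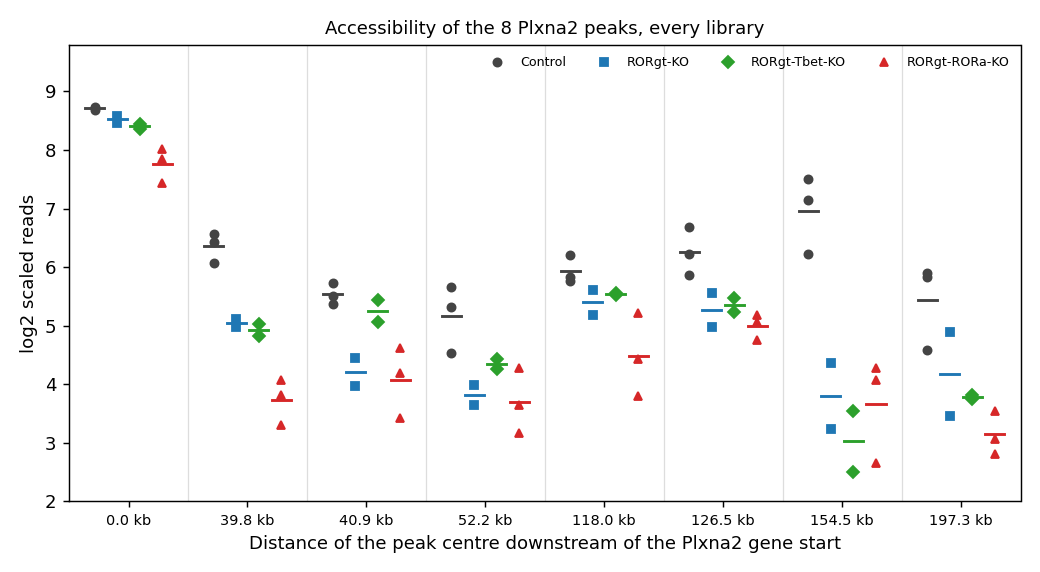
Accessibility of the 8 Plxna2 peaks in log2 scaled reads (y axis) by the distance of the peak centre from the gene start in kb (x axis, not to scale); each point is 1 library, each short bar a group mean. The start peak lies above 7.4 in all libraries, and the peak at 154.5 kb shows the widest gap between Control and the knockouts.

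The semaphorin ligands were the largest family, with 56 peaks in 14 of 20 genes. They moved in both directions: 3 peaks rose and 5 fell in RORgt-KO, 8 rose and 8 fell in RORgt-Tbet-KO, and 9 rose and 6 fell in RORgt-RORa-KO. Of all peaks, 5.19%, 11.3% and 15.1% rose and 7.12%, 11.3% and 16.1% fell in these comparisons. The family medians were 0.049, 0.12 and 0.18. All peaks that fell belonged to the secreted class 3 (Sema3a, Sema3c, Sema3d), to class 6 (Sema6a, Sema6d) or to Sema4b.

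Among the class 3 genes, the peak over the start of Sema3d (chr5:12383129-12384212), whose promoter is printed above, stood at 7.40, 7.63 and 7.02 in Control, 6.43 and 6.53 for RORgt-KO, 6.61 and 6.28 for RORgt-Tbet-KO and 6.29, 6.52 and 6.41 for RORgt-RORa-KO. All knockout libraries were below all Control libraries and lay within a narrow range. The differences were -0.86 (SE 0.23, adjusted p = 0.0128), -0.90 (SE 0.23, adjusted p = 0.00583) and -0.94 (SE 0.21, adjusted p = 0.000885). The RORgt-KO call was lost without Control replicate 2 or either RORgt-KO library, the RORgt-Tbet-KO call without its replicate 2 (-0.73, adjusted p = 0.140), while the RORgt-RORa-KO call was made without each library in turn. Sema3c encodes a secreted ligand of neuropilin and plexin D1 complexes. Its peak 18448 bp upstream (chr5:17556154-17556368) had 22, 23 and 16 reads in Control, 4 and 4 for RORgt-KO, 10 and 6 for RORgt-Tbet-KO and 2, 5 and 11 for RORgt-RORa-KO. The differences of -2.33, -2.02 and -2.16 had adjusted p = 0.0296, 0.0415 and 0.0104, and each was lost without at least 1 library: 4 of 10 for RORgt-KO (both its libraries and Control replicates 1 and 2), 5 of 10 for RORgt-Tbet-KO (both its libraries and all Control libraries, and also under quantile normalization) and RORgt-RORa-KO replicate 1. The single peak of Sema3a, downstream of the gene (chr5:13628842-13629372), fell in RORgt-RORa-KO from 5.90, 6.44 and 5.85 to 4.73, 5.07 and 4.70 (-1.23, SE 0.29, adjusted p = 0.00156), and that call was made without each library in turn.

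Sema6a, a transmembrane semaphorin that binds plexins A2 and A4, had 4 peaks on chromosome 18 that did not move together. At the gene end (47371473-47371772), levels were 6.86, 7.07 and 6.96 in Control, 5.41 and 6.04 for RORgt-KO, 5.89 and 5.79 for RORgt-Tbet-KO and 4.65, 5.63 and 4.49 for RORgt-RORa-KO. No knockout library reached Control, and the RORgt-RORa-KO difference of -2.04 (SE 0.28, adjusted p = 2.37e-06, 4.12-fold lower) was called without each library in turn. The differences in RORgt-KO (-1.24, adjusted p = 0.00881, lost without RORgt-KO replicate 1) and RORgt-Tbet-KO (-1.13, adjusted p = 0.0106, lost without either of its libraries) were smaller, and both were lost without the trend. At 47368810-47369177 the same groups fell by 0.96, 1.06 and 1.08 (adjusted p = 0.0214, 0.00631 and 0.00135), with the third call made without each library, the first lost without either RORgt-KO library, Control replicate 1 or 2 or the trend and the other lost without RORgt-Tbet-KO replicate 2. The remaining peak near this end (47367266-47367480) fell by 1.03 in RORgt-KO (adjusted p = 0.0433, lost without any Control, RORgt-KO or RORgt-Tbet-KO library, without the trend, with each library centred on its median and with both limma-voom fits to recovered reads) and by 1.15 in RORgt-Tbet-KO (adjusted p = 0.0148, lost without either of its libraries). A peak farther inside the gene (47339185-47340012) instead stood at 6.82, 7.25 and 7.14 in Control, 7.24 and 7.43 for RORgt-KO, 6.40 and 6.17 for RORgt-Tbet-KO and 7.94, 8.12 and 7.69 for RORgt-RORa-KO. The RORgt-RORa-KO libraries lay above every other library there and the RORgt-Tbet-KO libraries below every other. It rose by 0.85 (SE 0.19, adjusted p = 0.000957) in RORgt-RORa-KO and fell by 0.78 (SE 0.21, adjusted p = 0.00811) in RORgt-Tbet-KO, and the latter call was lost without RORgt-Tbet-KO replicate 2.

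Sema6d, a class 6 ligand of plexin A1, also had peaks that moved apart. The peak at chr2:124621997-124622641 fell in RORgt-Tbet-KO, from 6.71, 7.30 and 6.87 to 5.72 and 5.70 (-1.25, SE 0.25, adjusted p = 0.00056). The one beyond the gene's 3′ end at 124704518-124705274 rose in RORgt-RORa-KO, from 6.40, 7.001 and 6.40 to 7.42, 7.81 and 7.37 (0.93, SE 0.21, adjusted p = 0.000883). Both calls were made without each library in turn.

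Of the semaphorin peaks that rose, 2 of 3 in RORgt-KO, 7 of 8 in RORgt-Tbet-KO and 5 of 9 in RORgt-RORa-KO were at class 4 genes, which encode transmembrane ligands and held 38 of the 56 semaphorin peaks (67.9%). Of those that fell, 0 of 5, 0 of 8 and 1 of 6 were at class 4 genes. The split by class was not part of the fixed rule. The class 4 rises were at Sema4d, Sema4b and, in RORgt-Tbet-KO, Sema4a, while Sema4c and Sema4f had no called peak. Sema4d had the most peaks of any member gene, 16. In the 3 comparisons with Control, 2, 4 and 4 of them rose (5.19%, 11.3% and 15.1% of all peaks did) and none fell. The peak 17.2 kb inside the outer 5′ end (chr13:51776306-51776716) stood at 4.28, 4.54 and 4.68 in Control, 5.61 and 5.56 for RORgt-KO, 5.58 and 5.89 for RORgt-Tbet-KO and 5.98, 6.24 and 6.05 for RORgt-RORa-KO. All 7 knockout libraries were above all Control libraries. It rose by 1.08 (adjusted p = 0.0209), 1.24 (adjusted p = 0.00492) and 1.59 (SE 0.28, adjusted p = 6.91e-05, 3.01-fold), and the third call was made without each library. The first was lost without Control replicate 1 or either RORgt-KO library and with the 2 groups alone, and the second without RORgt-Tbet-KO replicate 2. A peak 4.9 kb outside the gene (51798391-51798733) rose by 1.05, 1.15 and 1.30 (adjusted p = 0.0146, 0.00462 and 0.000294), again with the third call made without each library, the first lost without Control replicate 1, RORgt-KO replicate 1 or the trend and the second lost without RORgt-Tbet-KO replicate 2. The strongest Sema4d peak (51748048-51748760) ranged from 7.24 to 7.90 over all libraries and was not called. The other Sema4d calls against Control were each lost without any of 2 or 3 libraries, apart from the peak at 51754101-51754443 in RORgt-RORa-KO (0.94, adjusted p = 0.00115), and the one at 51800114 was 1.37 in RORgt-RORa-KO but 0.45 without Control replicate 1.

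**Figure D3:**
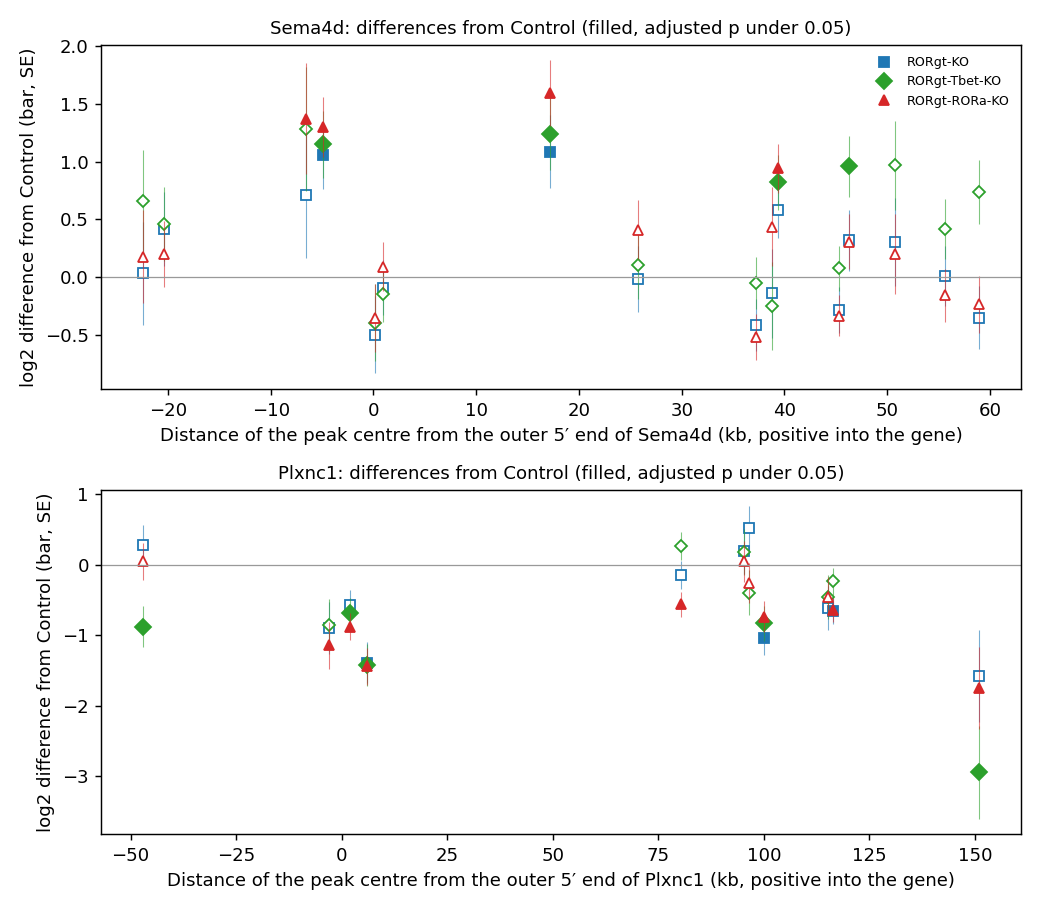
Log2 difference from Control with its SE for the 16 Sema4d peaks (upper panel) and the 11 Plxnc1 peaks (lower panel), by the distance of the peak centre from the outer 5′ end of the gene in kb; filled symbols have an adjusted p under 0.05. The filled Sema4d symbols are all above 0, and the filled Plxnc1 symbols all below 0.

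Sema4b, with 10 peaks, had one that rose in both double knockouts and one that fell in RORgt-RORa-KO. The rising one (chr7:80209383-80210308) stood at 7.68, 7.57 and 7.44 in Control and at 7.76 to 8.42 in the 7 knockout libraries, and was called in RORgt-Tbet-KO (0.71, adjusted p = 0.00889) and RORgt-RORa-KO (0.51, adjusted p = 0.0259). Each of these calls was lost without either of at least 2 libraries: both RORgt-Tbet-KO libraries for the first, and Control replicates 2 and 3 and RORgt-RORa-KO replicates 1 and 3 for the second, whose difference was 0.34 without RORgt-RORa-KO replicate 3. Both were lost without the trend, and the second also with the 2 groups alone. The falling one (80207242-80207631) went from 6.99, 6.97 and 6.92 in Control to 6.07, 5.40 and 5.91 in RORgt-RORa-KO (-1.17, SE 0.23, adjusted p = 0.000258), a call made without each library. Sema4a rose at 1 of 3 peaks in RORgt-Tbet-KO (1.39, adjusted p = 0.0352, lost without either of its libraries or Control replicate 1 or 2). The start peak of Sema6c, printed above, rose by 0.52 in RORgt-Tbet-KO (adjusted p = 0.0471), from 7.44, 7.53 and 7.44 to 7.96 and 8.02, and this call was lost without any of 8 libraries, all except RORgt-RORa-KO replicates 2 and 3, and under quantile normalization or without the trend.

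Sema7a is a membrane-anchored semaphorin that signals through integrins and plexin C1. Its peak inside the gene (chr9:57956803-57957319) stood at 4.28, 3.18 and 4.38 in Control, 5.53 and 5.86 for RORgt-KO, 4.77 and 5.42 for RORgt-Tbet-KO and 5.44, 4.63 and 5.68 for RORgt-RORa-KO. Every knockout library was above every Control library. It rose by 1.75 in RORgt-KO (SE 0.43, adjusted p = 0.00632) and by 1.30 in RORgt-RORa-KO (SE 0.38, adjusted p = 0.0101). The first call was lost without either RORgt-KO library, and the second without Control replicate 2 (0.92) or RORgt-RORa-KO replicate 3. A weak peak beyond the gene (57968926-57969126) rose 4.93-fold in RORgt-RORa-KO (adjusted p = 0.00937), but Control replicate 2 held 1 read there and the other Control libraries 8 and 11, and without that library the log2 difference was 1.17 (adjusted p = 0.0992); the call was also lost without the trend.

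Of the semaphorin receptors, 2 plexin genes outside Plxna2 had called peaks, Plxnc1 and Plxnd1, and all of those peaks fell against Control. Over the 21 plexin peaks, 3 fell in RORgt-KO, 6 in RORgt-Tbet-KO and 9 in RORgt-RORa-KO, and none rose. Of all peaks, 7.12%, 11.3% and 16.1% fell and 5.19%, 11.3% and 15.1% rose. The plexin medians were -0.15, -0.28 and -0.45.

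Plxnc1, the gene of plexin C1, had 11 peaks. The peak 6.0 kb inside its 5′ end (chr10:94938928-94939185) stood at 6.86, 7.02 and 6.58 in Control, 5.57 and 5.29 for RORgt-KO, 5.12 and 5.68 for RORgt-Tbet-KO and 5.07, 5.34 and 5.73 for RORgt-RORa-KO. The knockout groups overlapped each other and none reached Control. The differences were -1.39 (SE 0.30, adjusted p = 0.00202), -1.42 (SE 0.30, adjusted p = 0.000922) and -1.44 (SE 0.27, adjusted p = 0.000119), or 2.62-fold, 2.68-fold and 2.72-fold lower. The first is the 1 member call in RORgt-KO that was made without each library, as was the third, while the second was lost without RORgt-Tbet-KO replicate 1 (-1.15, adjusted p = 0.0578). Near the far end of the gene, a weaker peak (94793996-94794283) held 17, 27 and 31 reads in Control and 3 to 11 in the knockouts. It fell by 2.95 in RORgt-Tbet-KO (adjusted p = 0.00164, lost without RORgt-Tbet-KO replicate 1) and by 1.75 in RORgt-RORa-KO (adjusted p = 0.0226, lost without Control replicate 2 or 3 or RORgt-RORa-KO replicate 1 or 3). Close to the start, 94942672-94943303 fell by 0.88 in RORgt-RORa-KO (adjusted p = 0.000614), and farther in, the strongest Plxnc1 peak (94828023-94829237) fell by 0.64 there (adjusted p = 0.00399), both without loss when any 1 library was left out. Of the others, 94849462-94849690 did not pass the test, at 5.21 to 6.14 over all libraries.

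Plxnd1 encodes a receptor for Sema3e and, with neuropilins, for other class 3 semaphorins. Its start peak (chr6:115994746-115995406) did not pass the test, at 6.46, 6.44 and 6.79 in Control and 6.39 to 7.13 in the knockouts. Its peak at the other gene end (115953922-115954314) fell in RORgt-RORa-KO, from 6.99, 6.97 and 6.72 to 6.37, 5.91 and 5.89 (-0.84, SE 0.21, adjusted p = 0.00325), a call made without each library. A peak 1054 bp outside the gene (115996393-115996701) fell by 0.89 in RORgt-Tbet-KO (adjusted p = 0.0243, lost without Control replicate 1 or RORgt-Tbet-KO replicate 2, with -0.51 and adjusted p = 0.435 without the latter) and by 0.67 in RORgt-RORa-KO (adjusted p = 0.0453, lost without any of 8 libraries, all except Control replicate 2 and RORgt-Tbet-KO replicate 2, and without the trend, with library weights, with the 2 groups alone or with limma-voom scaled by library size). The neuropilins had 7 peaks, of which 1 fell, in RORgt-RORa-KO (16.1% of all peaks fell in that group). This Nrp1 peak at the gene's 5′ end (chr8:128357145-128358813) went from 7.90, 7.74 and 7.61 in Control to 6.86, 6.95 and 7.27 in RORgt-RORa-KO (-0.72, SE 0.18, adjusted p = 0.00283), also without loss when any 1 library was left out. There the RORgt-KO libraries were at 7.43 and 7.80 and the RORgt-Tbet-KO libraries at 7.31 and 7.50. The start peak of Nrp2 was not called, with 6.26, 6.68 and 5.81 in Control and 6.07 to 7.34 in the knockouts.

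The ephrins had 8 peaks in 4 of 8 genes, of which 2 fell in each knockout group and 1 rose, in RORgt-Tbet-KO. Of all peaks, 7.12%, 11.3% and 16.1% fell in the 3 comparisons and 11.3% rose in RORgt-Tbet-KO. Efnb1, the X-linked ephrin B1, had 3 of the 8 ephrin peaks. Its start peak (chrX:99134921-99136947), the longest member at 2026 bp, stood at 9.65, 9.45 and 9.38 in Control, 9.35 and 9.46 for RORgt-KO, 9.10 and 9.20 for RORgt-Tbet-KO and 8.94, 8.92 and 8.82 for RORgt-RORa-KO. Only the RORgt-RORa-KO difference passed the test (-0.60, SE 0.15, adjusted p = 0.00197), and it did so without each library. At the 3′ end of the gene (99149987-99150338), levels were 5.83, 5.93 and 5.07 in Control, 3.28 and 4.46 for RORgt-KO, 2.72 and 3.55 for RORgt-Tbet-KO and 4.48, 3.82 and 3.75 for RORgt-RORa-KO. All knockout libraries were lower, by 1.74 (adjusted p = 0.0225), 2.47 (SE 0.51, adjusted p = 0.000798) and 1.59 (adjusted p = 0.00811). The middle call was made without each library, the first was lost without Control replicate 1 or 2 or RORgt-KO replicate 1 (-1.15 without the latter), and the last without Control replicate 2. The third Efnb1 peak, 49928 bp from the gene, fell by 1.05 in RORgt-KO (adjusted p = 0.0301, lost without either RORgt-KO library, Control replicate 1 or 2 or the trend). Efna5 fell at 1 of 2 peaks in RORgt-Tbet-KO (-2.32, adjusted p = 0.0142), with 17, 14 and 16 reads in Control against 4 and 6 in that group. Efnb2 rose at 1 of 2 peaks in the same group, 1.05 (adjusted p = 0.0113), from 5.18, 5.23 and 5.26 to 6.29 and 6.27. Both calls were lost without either RORgt-Tbet-KO library.

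No Eph receptor peak was called in RORgt-KO, and none rose in any comparison. Of 11 peaks in 8 of 14 genes, 3 fell in RORgt-Tbet-KO and 3 in RORgt-RORa-KO (11.3% and 16.1% of all peaks did). In RORgt-KO 7.12% of all peaks fell, and 5.19%, 11.3% and 15.1% rose in the 3 comparisons with Control. At these shares few calls would be made among 11 peaks, so their absence says little. Epha7, a receptor of the A class with its promoter printed above, had 1 peak, over its start (chr4:28812680-28814100). It stood at 8.56, 8.63 and 8.12 in Control, 8.20 and 8.50 for RORgt-KO, 7.63 and 7.64 for RORgt-Tbet-KO and 7.45, 7.82 and 7.46 for RORgt-RORa-KO. The RORgt-KO libraries lay inside the Control range and all libraries of both double knockouts below it. The differences were -0.09 in RORgt-KO (SE 0.20), -0.81 in RORgt-Tbet-KO (SE 0.20, adjusted p = 0.0035) and -0.86 in RORgt-RORa-KO (SE 0.17, adjusted p = 0.000359). The last was called without each library, and the RORgt-Tbet-KO call was lost without its replicate 1 (-0.80, adjusted p = 0.0515).

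Epha1 had 1 peak, over its start (chr6:42372906-42373470), at 6.60, 6.30 and 6.51 in Control, 5.49 and 6.38 for RORgt-KO, 5.34 and 4.87 for RORgt-Tbet-KO and 5.77, 5.82 and 4.89 for RORgt-RORa-KO. It fell by 1.36 in RORgt-Tbet-KO (adjusted p = 0.00317) and by 0.98 in RORgt-RORa-KO (adjusted p = 0.011), and these calls were lost without RORgt-Tbet-KO replicate 2 and RORgt-RORa-KO replicate 3. A peak just before the start of Epha4 (chr1:77515754-77516517) fell by 1.13 in RORgt-Tbet-KO (adjusted p = 0.0047, lost without its replicate 1). Ephb6, which lacks kinase activity and is expressed by T cells, fell at its start peak (chr6:41604418-41605763) in RORgt-RORa-KO, from 8.86, 8.92 and 8.68 to 8.08, 8.14 and 8.34 (-0.63, SE 0.16, adjusted p = 0.00344), a call made without each library.

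Of the 10 peaks at Robo receptors, 2, 4 and 4 fell in the 3 comparisons (7.12%, 11.3% and 16.1% of all peaks did) and none rose, with medians of -0.56, -1.19 and -1.02. The calls were at Robo1 and Robo2, and neither of the 2 Robo3 peaks was called. Robo1, a receptor of the Slits, had 5 peaks, most of them weak. The one with the best support was 15854 bp downstream of the listed start (chr16:72679003-72679431), at 5.66, 5.46 and 5.20 in Control, 3.99 and 4.11 for RORgt-KO, 3.50 and 3.33 for RORgt-Tbet-KO and 4.29, 4.63 and 4.09 for RORgt-RORa-KO. All knockout libraries were below all Control libraries, with RORgt-Tbet-KO lowest. The difference of -2.03 in RORgt-Tbet-KO (SE 0.44, adjusted p = 0.00139, 4.07-fold lower) was called without each library. Those in RORgt-KO (-1.39, adjusted p = 0.0365) and RORgt-RORa-KO (-1.10, adjusted p = 0.0334) were lost without 5 and 4 of the 10 libraries, Control replicates 1 and 2 among them in both cases, with differences of -1.28 to -1.45 and -0.98 to -1.09 there. The largest Robo1 difference was at 72707211-72707449, with 35, 30 and 8 reads in Control and 3 to 7 in the 7 knockout libraries. It was -2.77, -2.67 and -2.11 (adjusted p = 0.0207, 0.0165 and 0.0246), and was lost without Control replicate 1 or 2 in all 3 comparisons, without either library of the 2-library groups and without RORgt-RORa-KO replicate 3. Robo2 had a peak at 74443222-74443562 that went from 5.66, 6.62 and 5.63 in Control to 3.81, 4.63 and 3.84 in RORgt-RORa-KO (-1.88, SE 0.39, adjusted p = 0.000395), a call made without each library; in RORgt-Tbet-KO it was 5.04 and 3.99 (-1.45, adjusted p = 0.0151, lost without Control replicate 2 or RORgt-Tbet-KO replicate 2, with -0.93 without the latter).

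Of the Slit ligands, Slit3 had 2 peaks that moved in opposite directions. A weak one (chr11:35657723-35657987) held 0, 4 and 7 reads in Control, 11 and 15 for RORgt-KO, 19 and 28 for RORgt-Tbet-KO and 20, 13 and 23 for RORgt-RORa-KO. Every knockout library held more reads than every Control library. It rose by 2.13 (adjusted p = 0.0466), 2.33 (adjusted p = 0.0176) and 2.54 (SE 0.63, adjusted p = 0.00267), and the last was called without each library. Without Control replicate 1, the library with 0 reads there, the differences were 1.22, 1.43 and 1.64, the last with adjusted p = 0.0199. The first was lost without any of 8 libraries, all except Control replicate 3 and RORgt-RORa-KO replicate 2, and the second without Control replicate 1 or either RORgt-Tbet-KO library. Both were also lost without the trend and with the 2 groups alone, and the first with both limma-voom fits. The other peak (35537442-35537835) fell by 1.19 in RORgt-RORa-KO (adjusted p = 0.00441), from 6.23, 6.13 and 6.46 to 4.19, 5.82 and 5.24. Without the lowest library, RORgt-RORa-KO replicate 1, the difference was -0.75 (adjusted p = 0.0588).

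Unc5c, a netrin receptor of the repulsive class, held the member peak with the smallest adjusted p in each of the 3 comparisons with Control. The gene (chr3:141465564-141834924, + strand) had 5 peaks. Of these, 3 fell in every comparison with Control (7.12%, 11.3% and 16.1% of all peaks did) and none rose. The start peak (141464577-141465805), over the promoter printed above, stood at 8.56, 8.33 and 8.31 in Control, 6.85 and 7.68 for RORgt-KO, 6.30 and 6.36 for RORgt-Tbet-KO and 6.55, 6.57 and 6.44 for RORgt-RORa-KO. The double knockouts were lowest and close together, and the RORgt-KO libraries lay between them and Control. The differences were -1.13 (SE 0.22, adjusted p = 0.000885, 2.19-fold), -2.07 (SE 0.22, adjusted p = 1.76e-07, 4.19-fold) and -1.88 (SE 0.20, adjusted p = 3.35e-08, 3.68-fold). Both double knockout calls were made without each library. Without RORgt-KO replicate 1 the RORgt-KO difference was -0.72 (adjusted p = 0.119).

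A second peak near the start of Unc5c (141466072-141466304) stood at 6.50, 7.04 and 6.40 in Control, 5.24 and 5.74 for RORgt-KO, 3.82 and 4.55 for RORgt-Tbet-KO and 5.01, 5.07 and 5.30 for RORgt-RORa-KO. Here RORgt-Tbet-KO was the lowest group, at -2.46 (SE 0.33, adjusted p = 5.6e-06, 5.52-fold), against -1.52 in RORgt-RORa-KO (adjusted p = 0.000247) and -1.16 in RORgt-KO (adjusted p = 0.0201). The first 2 of these were called without each library, and the RORgt-KO call was lost without Control replicate 2 or either RORgt-KO library. The difference between the double knockouts at this peak did not pass the test (0.94, SE 0.33). A peak 164 kb into the gene (141629239-141629825) fell by 0.93, 0.98 and 1.18 (adjusted p = 0.0201, 0.00922 and 0.000375), of which only the last was called without each library; the first was lost without Control replicate 1 or 2 or either RORgt-KO library, the second without RORgt-Tbet-KO replicate 2, and both without the trend. The peak at 313.3 kb (141778260-141779439) was not called against Control, at 7.53 to 7.80 there and 7.29 to 8.26 in the knockouts.

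**Figure D4:**
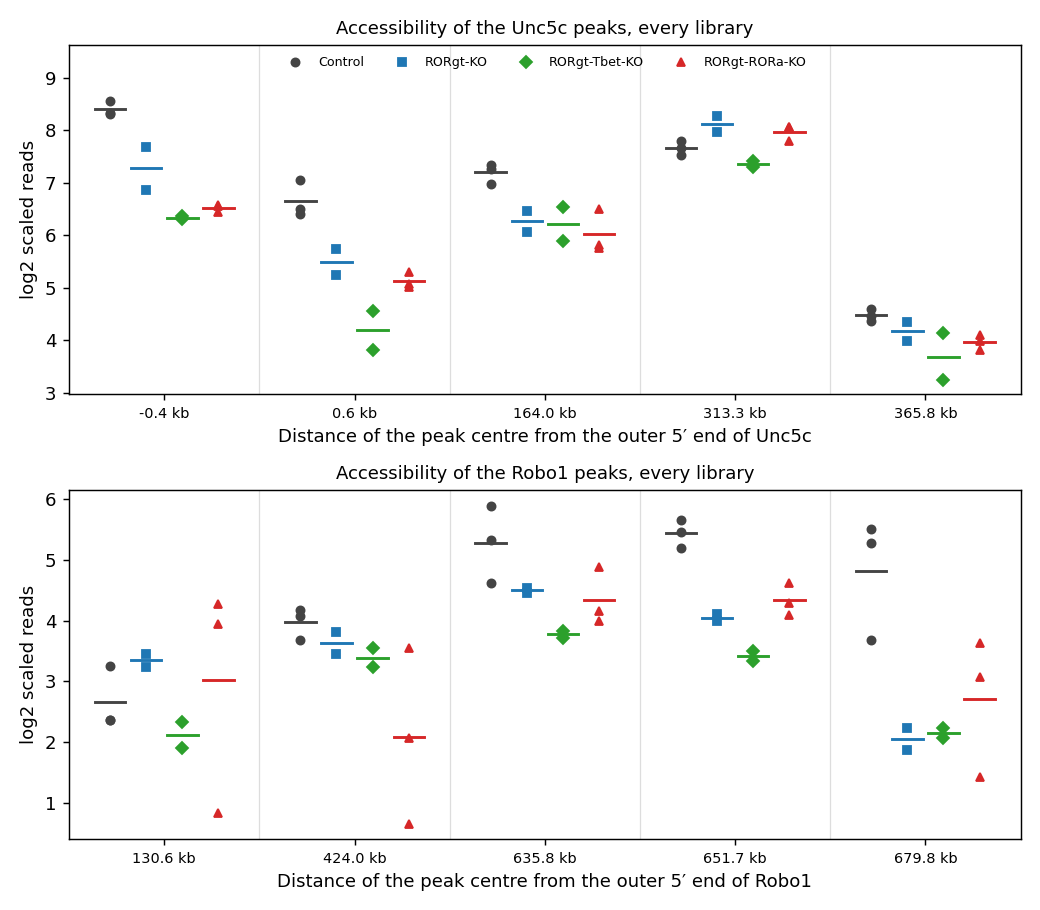
Accessibility in log2 scaled reads (y axis) of the 5 Unc5c peaks (upper panel) and the 5 Robo1 peaks (lower panel) by the distance of the peak centre from the outer 5′ end of the gene in kb (x axis, not to scale); each point is 1 library and each short bar a group mean. The knockout libraries lie below Control at the first 3 Unc5c peaks, where Control is at 6.40 to 8.56, and the Robo1 peaks lie at or below 5.89.

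The second deletions were compared with RORgt-KO and with each other. Against RORgt-KO, 1 member peak fell and 0 rose in RORgt-Tbet-KO (0.965% and 0.179% of all peaks), and 1 fell and 0 rose in RORgt-RORa-KO (1.14% and 0.331% of all peaks). The first was the inner Sema6a peak described above (-1.05, adjusted p = 0.0159), and that call was lost without the trend or any of the 4 libraries of the 2 groups, with differences of -0.93 to -1.16. The other was the Epha7 start peak (-0.77, adjusted p = 0.038), a call lost without 6 of the 10 libraries, namely both of RORgt-KO, both of RORgt-Tbet-KO and RORgt-RORa-KO replicates 1 and 3 and, among other settings, without the mean-variance trend or with the 2 groups alone. These counts of 1 moved with single libraries: against RORgt-KO, RORgt-Tbet-KO had 7 calls without RORgt-RORa-KO replicate 2, 3 without its replicate 3 and 0 without RORgt-KO replicate 2 or either RORgt-Tbet-KO library, and RORgt-RORa-KO had 2 without its replicate 2 and 0 without RORgt-KO replicate 2, either RORgt-Tbet-KO library or its own replicate 1 or 3.

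Between the double knockouts, 5 peaks were higher in RORgt-RORa-KO (3.82% of all peaks were) and 3 were lower (3.72% of all peaks). The inner Sema6a peak differed by 1.63 (SE 0.21, adjusted p = 5.26e-06, 3.09-fold), and this was the 1 of the 8 calls made without each library. Each of the others was lost without at least 1 RORgt-Tbet-KO library. Higher in RORgt-RORa-KO were also a Sema3c peak inside the gene, Sema6d beyond its 3′ end, a Plxnc1 peak upstream of the gene and the Unc5c peak at 313.3 kb, and these calls other than Sema3c were lost without the trend. At the Sema3c peak (chr5:17653444-17653952), levels were 4.30 and 3.45 for RORgt-Tbet-KO against 5.61, 6.34 and 4.89 for RORgt-RORa-KO, with 5.02, 4.83 and 4.38 in Control (1.74, SE 0.43, adjusted p = 0.0102, lost without RORgt-Tbet-KO replicate 2 or RORgt-RORa-KO replicate 2). Lower in RORgt-RORa-KO were a Plxnc1 peak inside the gene (94864250-94864882), a Sema4b peak and a Sema4d peak, the latter 2 lost without the trend. The Plxnc1 peak stood at 7.29, 7.23 and 7.48 in Control, 7.17 and 7.21 for RORgt-KO, 7.67 and 7.53 for RORgt-Tbet-KO and 6.63, 6.75 and 6.94 for RORgt-RORa-KO. The RORgt-RORa-KO libraries lay below all others (-0.83 against RORgt-Tbet-KO, SE 0.20, adjusted p = 0.00871), and the call was lost without either RORgt-Tbet-KO library.

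**Figure D5:**
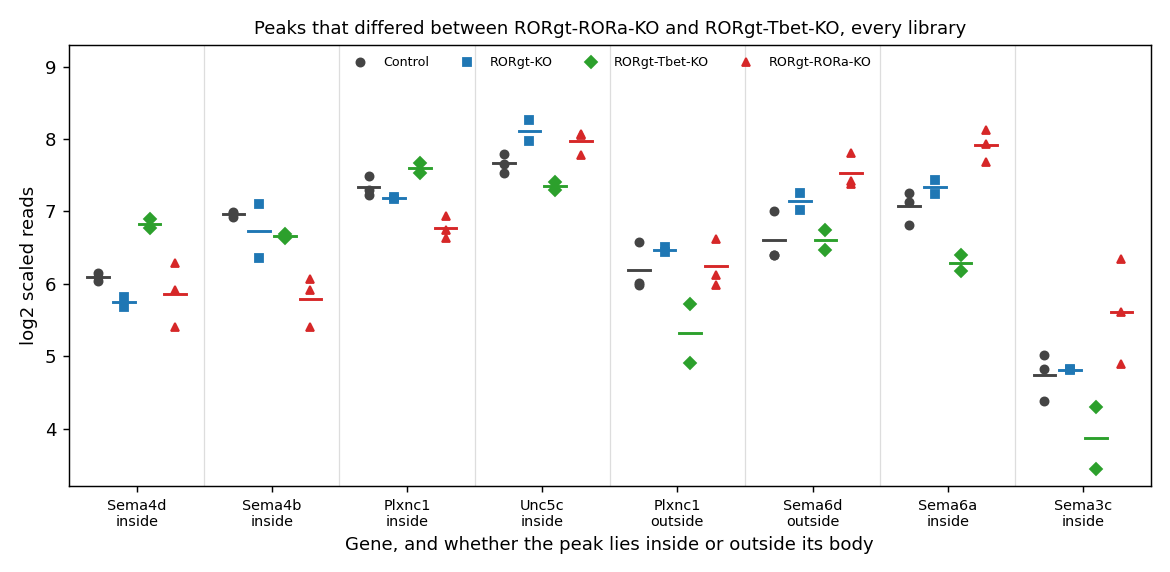
Accessibility in log2 scaled reads (y axis) of the 8 peaks that differed between RORgt-RORa-KO and RORgt-Tbet-KO, labelled by gene and by whether they lie inside the gene body (x axis), ordered by the difference; each point is 1 library and each short bar a group mean. At the Sema6a peak the RORgt-RORa-KO libraries, from 7.69 to 8.12, lie above all others and the RORgt-Tbet-KO libraries, at 6.17 and 6.40, below all others.

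In 24 of the 41 genes at least 1 peak was called in at least 1 of the 6 comparisons, and in 17 none was. A gene with more peaks has more chances of a call, and the share over all genes was not computed, so nothing is read from this split. The 17 were Efna3, Epha3, Epha6, Ephb1, Ephb3, Nrp2, Plxna1, Plxna3, Plxna4, Plxnb2, Robo3, Sema3b, Sema4c, Sema4f, Sema6b, Slit2 and Unc5b, with 31 peaks. Their differences from Control ranged from -1.18 to 1.22, and many of these peaks were weak. Among the stronger ones, the start peak of Sema4c ranged from 7.69 to 8.31 over all 10 libraries, that of Sema6b from 6.47 to 7.12 and that of Ephb3 from 6.03 to 6.94. Sema4f, with 7 peaks, had its strongest at 7.42, 7.71 and 7.47 in Control and 7.53 to 8.05 in the knockouts. The 22 family genes without a peak were Efna1, Efna2, Efna4, Efnb3, Epha2, Epha5, Epha8, Epha10, Ephb2, Ephb4, Plxnb1, Plxnb3, Robo4, Sema3e, Sema3f, Sema3g, Sema4g, Sema5a, Sema5b, Slit1, Unc5a and Unc5d.

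A list of 77 other genes of these pathways, which was drawn up by function but with earlier results of these data known, had 270 peaks in 60 genes. In RORgt-KO 16 rose (5.93%, against 5.19% of all peaks) and 16 fell (5.93%, against 7.12%). In RORgt-Tbet-KO 32 rose (11.9%, against 11.3%) and 29 fell (10.7%, against 11.3%), and in RORgt-RORa-KO 39 rose (14.4%, against 15.1%) and 52 fell (19.3%, against 16.1%). These shares of the whole list were near those of all peaks, and the medians were 0.028, -0.00015 and 0.0014. The netrin axis had 23 of these peaks in 8 of 13 genes, with 2, 2 and 3 higher and 2, 6 and 7 lower. The intracellular effectors had 203 peaks in 40 of 46 genes, with 9, 24 and 29 higher (4.43%, 11.8% and 14.3%) and 13, 18 and 37 lower (6.40%, 8.87% and 18.2%). The other receptors and ligands that the families use had 44 peaks in 12 of 18 genes. Of these, 5, 6 and 7 were higher (11.4%, 13.6% and 15.9%) and 1, 5 and 8 lower (2.27%, 11.4% and 18.2%). In RORgt-KO, the peak with the smallest p among those that fell was inside Farp1, an exchange factor that acts below plexin A receptors (chr14:121075129-121075649). It went from 6.30, 6.52 and 6.29 to 3.28 and 3.24 (-3.11, SE 0.51, adjusted p = 0.000131). Among those that rose it was inside Nrcam, a cell adhesion molecule that joins neuropilin complexes, from 6.73, 6.69 and 6.89 to 7.98 and 7.78 (1.11, SE 0.21, adjusted p = 0.000479). In RORgt-Tbet-KO, the same choice gave Itga1, an integrin subunit (-3.91, SE 0.61, adjusted p = 3.54e-05), and Srgap3, an effector of Robo receptors (1.48, SE 0.21, adjusted p = 1.18e-05). In RORgt-RORa-KO it gave Sdc1, the proteoglycan syndecan 1 (-1.53, SE 0.16, adjusted p = 3.36e-08), and the kinase gene Gsk3b (1.78, SE 0.19, adjusted p = 5.3e-08). All 6 of these calls were made without each library in turn and under each other setting tried.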

How the data were processed

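ATAC-seq was done on 10 libraries of sorted small intestinal innate lymphoid cells in 4 groups. Per the submitters' processing notes, reads were trimmed with Trim Galore 0.62 and aligned with Bowtie2 2.3.5.1 to GRCm38, with SAMtools and MACS2 also named; settings and scaling are not stated there. The authors deposited 1 table of 36262 peaks with log2 values for each library. Undoing the log2 gave whole multiples of a step of 0.838 to 1.76 for 100% of values (tolerance 0.01), so read counts could be recovered (2271585 to 5047436 a library). Empty peaks held 0.9 of the step. The 11 peaks on Y were left out. Peaks were named by the nearest protein-coding RefSeq gene (GRCm38.p6) within 50 kb. The deposited log2 values were fitted with limma 3.58.1 (R 4.3.3) with a mean-variance trend over all 4 groups, and p-values were adjusted by Benjamini-Hochberg over 36251 peaks. The series calls the replicates biological, and p-values measure the spread between these libraries. The fit was tested on simulated data. Peaks were named in the text by this rule: all of Plxna2; in each family and comparison with Control, the called peak with the largest rise and fall; between knockouts, the smallest p in each direction; in each family, the strongest peak within 1 kb of a gene end and the gene with most peaks; and in the other pathway genes, the smallest p in each direction. Other peaks were chosen after their values were seen. The members, lists and motifs were chosen with earlier results of these data known. Alternatives covered scaling, quantile normalization, limma-voom on recovered reads, low-signal filters, the trend, library weights, a replicate block, the 2 groups alone, a narrower gene distance and each library left out. No genome was used, so peak sequences were not analysed here. The check of 1 targeted gene is not reported here.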

Additional observations from a re-analysis of the deposited data

How the results depend on the processing

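With another setting the number of called member peaks moved by more than 1.5 times as follows. Without a mean-variance trend, 12 peaks were called in RORgt-KO (19 with it), 30 among the 4 groups (46 with it), 3 between the double knockouts (8 with it) and 0 between each double knockout and RORgt-KO. With library weights, 22 peaks differed between the double knockouts, 15 between RORgt-Tbet-KO and RORgt-KO and 6 between RORgt-RORa-KO and RORgt-KO. RORgt-Tbet-KO against RORgt-KO, with 1 call, gave 2 under quantile normalization, with 1 unit added before log2 and with the peaks of lowest mean left out, 6 and 5 with limma-voom on recovered reads (library size and medians of ratios), and 13 from the 2 groups alone. RORgt-RORa-KO against RORgt-KO, with 1 call, gave 2 with each library centred on its median and 0 from the 2 groups alone. The cause was not tested. Same-numbered libraries did not deviate together (r = -0.121 to 0.143 over 13 pairs, 3 of 10 libraries closest to their own number), so the numbers were not taken as pairs. A replicate block gave 6 calls for RORgt-Tbet-KO against RORgt-KO, 18, 43 and 42 for the comparisons with Control, 1 and 10 for the others and 52 among the 4 groups; 4 of the 104 member calls were not made with it, 2 of them at the Sema3c peak at 17556154 (adjusted p = 0.0507 for RORgt-KO and 0.0688 for RORgt-Tbet-KO). Leaving out each library in turn gave 2 to 20, 11 to 40 and 31 to 41 calls against Control, 0 to 7 and 0 to 2 against RORgt-KO, 2 to 11 between the double knockouts and 35 to 50 among the 4 groups. Of the single called peaks, none changed sign under any setting; under other settings 57 repeats lost the call and 961 did not, and without 1 library 219 did and 821 did not. With 2 libraries in a group, leaving 1 out assumes that the lone library varies like the others. Weak peaks rest on few reads, which limits their precision.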
